A study of Mus musculus with 2 samples.

Results

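The complement system was examined in mouse neurons of the dorsal root ganglion (DRG) through 31 genes for its components, receptors and regulators. A gene was a member when its symbol stood on a fixed list of complement genes, and its values came from every non-control probe that carried this symbol on the array. All 31 were found among 36910 gene names, on 55 probes. Of these genes, 20 were well above background on both arrays and are called measured, 2 were read on the Dock8+/- array only, 1 was read on different probes of the 2 arrays, and 8 had no probe well above background. A probe is called readable where it was well above background.

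The study compared DRG neurons of C57BL/6 mice that carry the AND T cell receptor transgene in both groups. In 1 group a functional copy of Dock8 is left (Dock8+/-), and its label notes low IL-31 (interleukin-31, an itch-inducing cytokine). In the other no functional copy is left (Dock8-/-), and its label notes high IL-31. Dock8 encodes an exchange factor for small GTPases that lymphocytes and other leukocytes use when they migrate. Each group is 1 one-colour Agilent array of total RNA. The age of the mice, the number of animals behind an array and the way neurons were separated from other cells of the ganglion are not stated in the sources used here.

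Complement is a cascade of plasma and cell surface proteins that marks targets for removal and can open pores in membranes. The classical pathway starts when C1q binds antibody or other surfaces, the lectin pathway when mannose-binding proteins bind sugars, and the alternative pathway runs through factor B as an amplification loop. All of them meet at the cleavage of C3, and regulators on host cells and in fluid stop the cascade. The liver makes most of the plasma proteins, while macrophages make C1q and properdin, and fibroblasts, glia and other cells of a tissue make several of the rest. In the nervous system C1q and C3 are known as tags on synapses and injured axons.

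The readings rest on 60-base probes. Some are shown in lower case, 5′ to 3′, as sequences of the transcript strand with their positions on mouse build mm9. The first 3 are probes of genes with large differences in opposite directions, C1qa and Cfb on the low side and C3 on the high side. The next 4 are shown because they read genes with near-identical partners. The C3, C4b and second C1rb sequences are other probes than the one used for the value of their gene.
C1qa, chr4:136452409-136452468, minus strand: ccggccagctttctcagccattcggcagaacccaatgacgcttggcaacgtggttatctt
Cfb, chr17:34993502-34993858, minus strand: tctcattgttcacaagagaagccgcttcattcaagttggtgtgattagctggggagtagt
C3, chr17:57343678-57343737, minus strand: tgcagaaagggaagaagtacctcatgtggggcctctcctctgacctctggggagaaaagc
C4a, chr17:34948806-34949824, minus strand: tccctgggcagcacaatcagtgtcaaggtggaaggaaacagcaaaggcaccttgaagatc
C4b, chr17:34866361-34866420, minus strand: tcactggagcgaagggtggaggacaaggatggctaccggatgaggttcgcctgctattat
C1rb, chr6:124525309-124525368, plus strand: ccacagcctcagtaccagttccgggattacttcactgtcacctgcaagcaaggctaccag
C1rb, chr6:124524715-124524982, plus strand: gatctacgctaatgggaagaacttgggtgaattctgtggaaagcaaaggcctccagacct
The Cfb, C4a and second C1rb probes span 357, 1019 and 268 bases of genome with 60 bases of sequence, so each of them reads across at least 1 splice junction. Exon and UTR annotation of mm9 was not used here. The C4a probe and the C4b probe shown each match RefSeq transcripts of both C4a and C4b, and the second C1rb probe matches transcripts of both C1ra and C1rb. These 3 probes cannot separate their 2 genes. For 47 of the 55 member probes the transcript on the probe was found in RefSeq, and in all 47 it belonged to the gene the array names.

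Values are given as processed intensity, in arbitrary units before any scaling, and as log2 differences (Dock8-/- minus Dock8+/-) after each array was set to its own 75th percentile. That percentile was 303.8 for Dock8+/- and 145.6 for Dock8-/-, so equal intensities on both arrays are a positive log2 difference. Of 56601 probes, 56.9% and 50.7% were well above background, and the lowest intensity with that status was 17.4 and 16.1. With 1 array per group no difference given here has a replicate check, no test exists between the groups, and the number of arrays limits the precision. A 2-fold difference is used as a description of size. The SD of a difference read from 1 spot per array was 0.0637, whereas the differences of several probes of 1 gene had an SD of 0.593 over 6164 genes. Dock8 itself cannot check the labels: of 5 probes only 1 could be read, with 20.5 in Dock8+/- and 6.87 (not well above background) in Dock8-/-, and the deleted part of the gene is not stated in the sources used here. Scaling on 8 spike-in probes in place of the percentile shifts every difference by -1.84, and the genes it turns from above to below 0 are named where they are described.

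Most measured complement genes were lower in the Dock8-/- sample. Of the 20, 8 were at least 2-fold lower (40%), against 7.07% of all 18538 measured genes. Only C3 was at least 2-fold higher (5%), against 8.74% of all measured genes, and on the spike-in scale it lay at -0.61. The median difference of the 20 genes was -0.70, against 0.03 over all measured genes. In all, 15 lay below 0 and 5 above it (C3, C4a, C4b, C1rb and Masp1), against 8954 below and 9584 above over all measured genes. All 5 of these lay below 0 on the spike-in scale, where 87.3% of all measured genes were at least 2-fold lower. The C4a reading comes from a probe that also matches C4b, so it is not a separate gene result. The differences of Masp1, C7, Cd55 and Clu lay within 0.593, the SD among probes of 1 gene. At a threshold of 1.5-fold, 12 members were lower (60%) and 4 higher (20%), against 16.9% and 20.6% of all measured genes. These shares leave out 11 members that were not well above background on both arrays, 2 of which were read on the Dock8+/- array alone. The list of members was chosen with earlier results of these data known, so the shares are a description only.

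**Figure D1:**
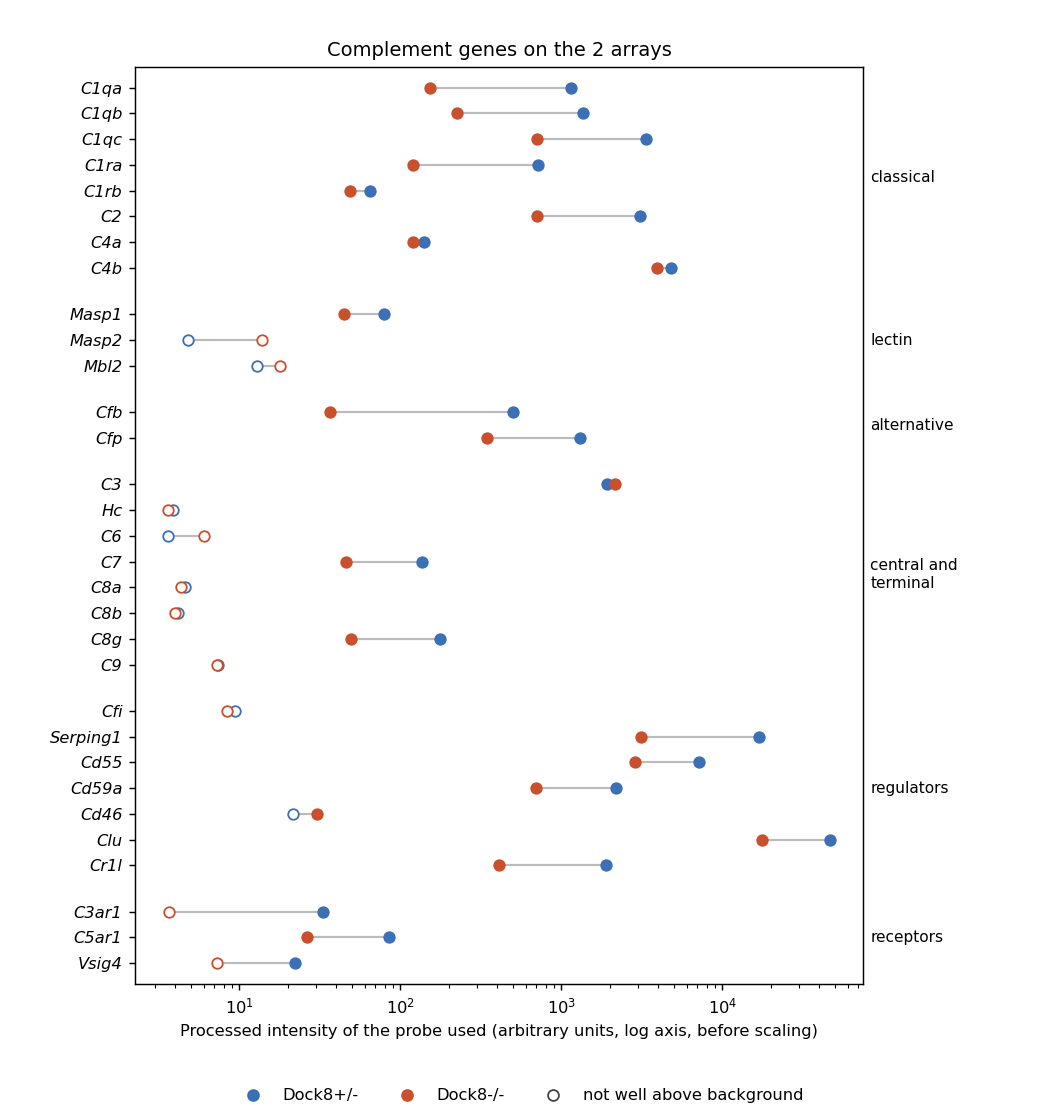
Processed intensity of the probe used for each of the 31 complement genes (log axis, arbitrary units, before scaling), grouped by pathway arm, on the Dock8+/- array (blue) and the Dock8-/- array (orange). Open circles were not well above background. Each point is 1 array, and a level cannot be compared between genes because each is read by another probe. Cfb has the widest gap among measured genes (501.3 and 36.4), whereas C3 had 1935 and 2165.

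The C1 complex, which opens the classical pathway, held 4 of the 8 genes that were at least 2-fold lower. C1qa, C1qb and C1qc encode the 3 chains of C1q, the part of the complex that recognises its target. C1qa read 1151 in Dock8+/- and 153 in Dock8-/-, a log2 difference of -1.85 or 3.61-fold lower, and 1.42% of measured genes lay lower still. C1qb read 1358 and 227, which is 2.87-fold lower at -1.52. C1qc read 3378 and 707, which is 2.29-fold lower at -1.20, while its other probe could not be read in either sample. All 3 chains were thus lower, C1qa most and C1qc least. Each rests on 1 readable probe, and the gap between C1qa and C1qc was larger than the spot error but close to the spread among probes of 1 gene.

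C1ra and C1rb encode C1r, the protease of the complex that is activated when C1q binds. C1ra read 713 and 120, a log2 difference of -1.52 or 2.86-fold lower, close to the value of C1qb. C1rb was dim on both arrays, with 64.4 and 48.7 on the probe used, a difference of 0.66. That value lay at -1.18 on the spike-in scale. Its other probe, which also matches C1ra, read 73.5 and 27.8, a difference of -0.34. The 2 C1rb probes therefore had opposite signs, and C1rb has no settled direction.

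C2 and C4 form the enzyme that the C1 complex assembles to cleave C3, and here they parted. C2, which supplies its catalytic part, read 3073 and 711, which is 2.07-fold lower at -1.05. C4b, the gene for complement C4, read 4831 and 3945, a difference of 0.77, or 1.70-fold higher. Its other probe, shared with C4a, read 651.0 and 360.4, a difference of 0.21. Both C4b probes were above 0 after percentile scaling, and on the spike-in scale the gene lay at -1.07.

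C4a, the sex-limited neighbour of C4b, had 140.3 and 119.9 on its probe, a difference of 0.83 that became -1.002 on the spike-in scale. Because that probe also matches C4b, the reading cannot be given to either gene. The RefSeq table for GRCm38.p6 lists C4a as a transcribed pseudogene. Across the classical arm all 8 genes were measured, with a median of -1.12, and 5 were at least 2-fold lower: C1qa, C1qb, C1qc, C1ra and C2.

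Genes of the lectin pathway were at or near background. Masp1 encodes a protease that circulates with mannose-binding lectin, and it was read on both arrays by 1 of its 5 probes, at 79.3 and 44.4. Its difference was 0.23, within the spread of probes of 1 gene, and -1.61 on the spike-in scale. Of its remaining probes, 2 could be read in Dock8+/- only (31.4 and 28.0), and 2 in neither sample. Masp2, the protease that cleaves C4 and C2, read 4.80 and 13.9, and Mbl2, a mannose-binding lectin made by the liver, read 12.9 and 17.9. No Masp2 or Mbl2 probe could be read in either sample.

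The alternative pathway held the lowest value among the members. Cfb encodes factor B, the protease part of the alternative C3 convertase, and its probe read 501.3 in Dock8+/- and 36.4 in Dock8-/-. The log2 difference was -2.72, or 6.61-fold lower, and 0.334% of measured genes lay lower. The second Cfb probe read 72.9 and 4.80 and was readable in Dock8+/- alone. Under a different background correction (normexp) the difference of Cfb was -1.67, the widest shift toward 0 among the alternatives for this gene.

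Cfp encodes properdin, which stabilises that convertase and is made by leukocytes. It read 1300 and 343.3, a difference of -0.86 or 1.81-fold lower. Its second probe read 138.1 and 12.1 and was likewise readable in Dock8+/- alone, so both alternative pathway genes had a further probe that could not be read in Dock8-/-. The median of the 2 genes was -1.79.

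C3, the protein at which the pathways meet, went the other way after percentile scaling. Its probe read 1935 in Dock8+/- and 2165 in Dock8-/-, the only measured member whose unscaled intensity was higher on the Dock8-/- array. The difference was 1.22, or 2.34-fold higher, and 5.04% of measured genes lay higher. The second C3 probe, whose sequence is shown above, read 1128 and 1136, a difference of 1.07, so both probes gave the same sign and nearly the same size. Under normexp the difference was 0.96, just short of 2-fold, and on the spike-in scale it was -0.61. In the same 2 samples C2 and Cfb, for the protease parts of the enzymes that cleave C3, were lower. C4b, whose product joins that of C2 in such an enzyme, lay at 0.77 (-1.07 on the spike-in scale).

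**Figure D2:**
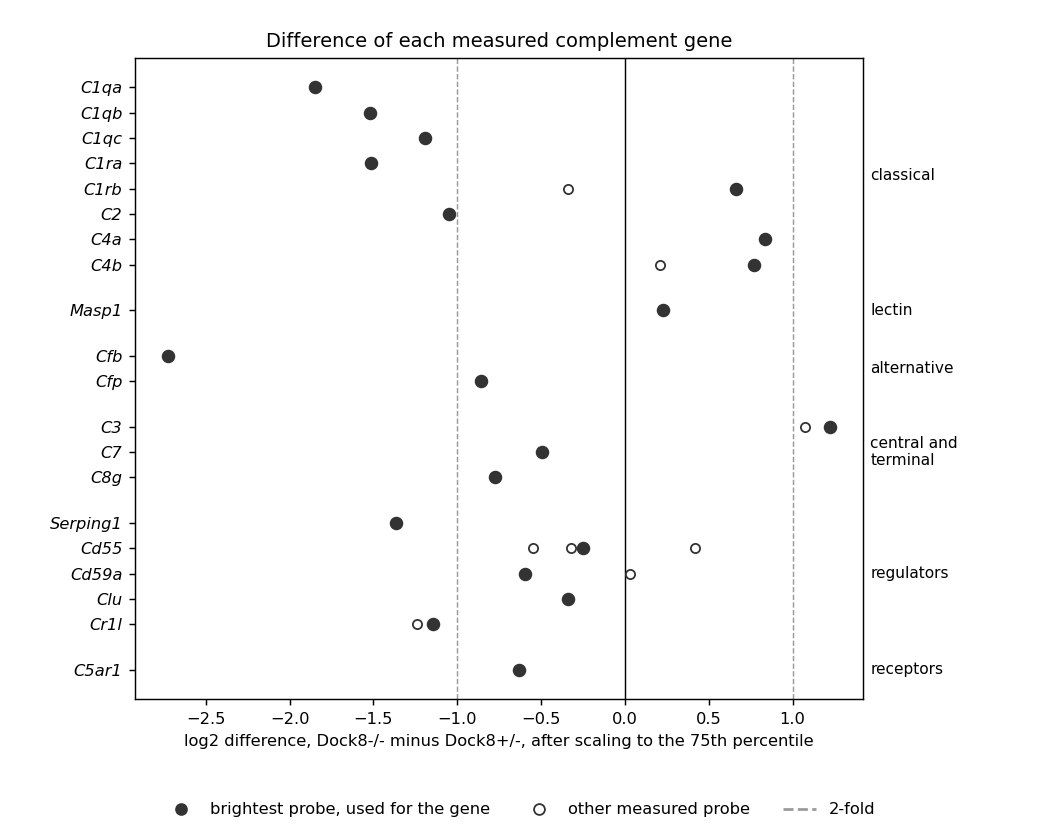
Log2 difference (Dock8-/- minus Dock8+/-, scaled to the 75th percentile) for the 20 measured complement genes, by arm. Filled points are the brightest probe of each gene, open points its other measured probes, and dashed lines mark 2-fold. Both C3 probes lie above 1 and both Cr1l probes below -1, whereas the probes of C1rb, Cd55 and Cd59a fall on both sides of 0. On the spike-in scale every filled point lies below 0, C3 at -0.61.

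Genes of the terminal pathway, whose products assemble the membrane pore, were scarcely read. C7, which anchors the growing complex in the membrane, read 135.5 and 46.1, a difference of -0.49, and -0.05 under normexp. C8g, the lipocalin-like chain of C8, read 177 and 49.6, a difference of -0.77, and -0.23 under normexp. Neither reached 2-fold in the percentile scaling. The other 5 could not be read on any probe of either array: Hc, which encodes C5 (3.88 and 3.62), C6 (3.63 and 6.04), C8a (4.58 and 4.32), C8b (4.17 and 3.96) and C9 (7.33 and 7.25). A complete set of pore components was therefore not read in either sample, and at this signal over background a lower or higher level of these 5 genes was not detectable.

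All 5 measured regulators lay below 0. Serping1 encodes the C1 inhibitor, which inactivates C1r and C1s, and it read 16878 and 3142, a difference of -1.36 or 2.57-fold lower. Cr1l encodes Crry, the rodent membrane regulator that helps to break down C3b and C4b on host cells. It read 1891 and 409.3, a difference of -1.15 or 2.21-fold lower, and a second probe gave -1.24 (1656 and 335.5). These were the 2 regulators beyond 2-fold, one a secreted brake on the C1 complex and the other a brake on the convertases at the cell surface.

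The other 3 were closer to 0. Cd55, decay-accelerating factor, which takes convertases apart, read 7159 and 2882, a difference of -0.25. Its 4 measured probes ran from -0.55 to 0.42, so its sign depended on the probe. Cd59a, which blocks the pore on host membranes, read 2186 and 692.6, a difference of -0.60, while its other probe gave 0.03. Clu encodes clusterin, a chaperone that also binds terminal complexes in fluid, and it read 46775 and 17741, a difference of -0.34. The median of the 5 was -0.60.

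No difference could be read for the remaining regulators. Cd46, which in mice is known mainly from the testis, had 3 dim probes: 1 was readable in Dock8+/- alone (20.9 and 18.4), and 2 in Dock8-/- alone (21.5 and 30.4, and 18.7 and 24.5). Cfi, the plasma protease that cleaves C3b, read 9.40 and 8.34, not well above background.

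Receptor genes were dim. C5ar1 encodes the main receptor for the anaphylatoxin C5a on myeloid cells, and it read 85.2 and 26.3, a difference of -0.63 that became 0.09 under normexp. C3ar1, the receptor for C3a, read 32.96 in Dock8+/- and 3.64 in Dock8-/-, the latter not well above background. Vsig4, the receptor of tissue macrophages for C3 fragments, read 22.1 and 7.26, again with only the first well above background. After scaling, neither Dock8+/- reading exceeded the lowest signal that could have been read on the Dock8-/- array, so no fold is given. All 3 receptors had the lower intensity on the Dock8-/- array before scaling, but that array was dimmer as a whole (75th percentile 145.6 against 303.8).

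**Figure D3:**
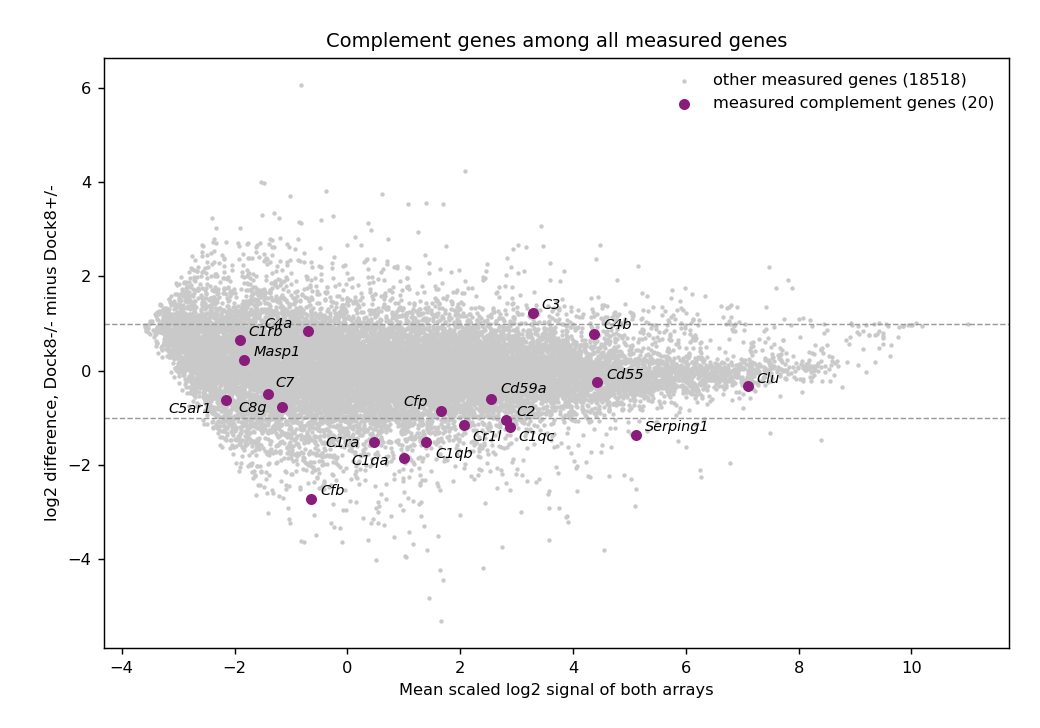
Log2 difference (Dock8-/- minus Dock8+/-) against the mean scaled log2 signal of both arrays for 18538 measured genes. The 20 measured complement genes are named, the others are grey, and dashed lines mark 2-fold. Cfb, C1qa, C1qb and C1ra lie toward the lower edge of the cloud at their signal, and C3 toward the upper edge (-0.61 on the spike-in scale).

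Some complement genes lie beside each other in the genome, and the values of such neighbours can be set side by side. In the RefSeq order of GRCm38.p6, C1qa, C1qc and C1qb follow each other on chromosome 4 with 0 protein-coding genes between them, and all 3 were at least 2-fold lower. C2 and Cfb are adjacent on chromosome 17, at -1.05 and -2.72. C4b lies in the same stretch and had a difference of 0.77 (-1.07 on the spike-in scale). The probe named for C4a, a gene with 4 genes between it and Cfb, gave 0.83 (-1.002 on the spike-in scale). That probe also matches C4b, so its value is not a separate result for C4a. C1ra and C1rb, on chromosome 6 with 1 gene between them, had -1.52 and 0.66, the latter with the probe conflict given above. Adjacent genes thus shared a sign in the C1q cluster and in the C2 and Cfb pair, but not across the whole stretch on chromosome 17.

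The upstream sequences of 2 of the adjacent C1q genes are shown because the chains are made together in macrophages, where the factor PU.1 acts. They are the 250 bases before the annotated start from RefSeq (GRCm38.p6), on the gene's strand, and the capitals mark a match to the PU.1 core GAGGAAG on the reverse strand.
C1qb, chr4:136886201-136886450, minus strand: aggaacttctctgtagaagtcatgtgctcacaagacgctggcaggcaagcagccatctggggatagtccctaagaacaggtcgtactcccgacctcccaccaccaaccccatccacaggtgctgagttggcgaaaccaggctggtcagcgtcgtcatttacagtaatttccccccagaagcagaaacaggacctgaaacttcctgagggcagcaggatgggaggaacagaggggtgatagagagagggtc
C1qc, chr4:136892915-136893164, minus strand: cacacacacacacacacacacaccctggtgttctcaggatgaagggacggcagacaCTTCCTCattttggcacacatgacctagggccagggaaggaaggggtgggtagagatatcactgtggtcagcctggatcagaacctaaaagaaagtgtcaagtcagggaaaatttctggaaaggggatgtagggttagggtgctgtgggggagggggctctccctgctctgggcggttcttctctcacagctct
Windows of 300 bases, from 250 before to 50 after a start, were found for 22 members (23 windows) and searched on both strands for 6 motifs. No window was found for C1qa, C2, C4a, C4b, Cfb, Cfi, Clu, Masp1 and Serping1, so these genes were not searched. The PU.1 core was found in the C1qc window alone, at position -194 from its start, and in 13.6% of all 32851 windows. TTCNNNGAA, the site bound by STAT factors, was found in 5 member windows (C1ra, C1rb, C7, C8a and Masp2) and in 8.30% of all windows. GAAANNGAA, a core of interferon response elements, was found in 4 (C5ar1, C7, Cd46 and Cd59a) and in 8.56% of all.

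The other 3 motifs were TGANTCA for AP-1 factors, in the C3ar1 and C8g windows and 7.81% of all, TATAAA, the TATA box, in the C3, C3ar1, C7 and Hc windows and 13.6% of all, and GGANTTTCC for NF-kB factors, in 0 member windows and 1.25% of all. No matches of different motifs shared a base. The genes with a STAT site hold C1ra, at -1.52, C7, at -0.49, C1rb, at 0.66 (-1.18 on the spike-in scale, with probes of opposite sign), and 2 that were not well above background. Each match describes the letters of the window only.

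The other genes of the pathway, taken from a list of 36 symbols outside the 31, were also mostly lower in the Dock8-/- sample. Of 30 on the array, 21 were measured, with a median of -0.42, 15 of them below 0. At least 2-fold lower were 7 (33.3%) and at least 2-fold higher 1 (4.76%), beside 7.07% and 8.74% of all measured genes. C1s1 and C1s2, the genes of the second protease of the C1 complex, were 4.25-fold and 3.62-fold lower (1235 and 139 for C1s1, 1461 and 193 for C1s2). With these, every measured gene of the C1 complex other than C1rb was at least 2-fold lower.

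Cfd encodes factor D, also called adipsin, which cleaves factor B and is a known product of fat cells. It read 1685 and 103 and was 7.80-fold lower. Vtn, for vitronectin, which binds terminal complexes, was 3.33-fold lower. Cd59b, the second mouse gene for the pore inhibitor, was 2.43-fold lower (148.3 and 29.2). Colec11, a collectin of the lectin pathway, was 2.09-fold lower (125.1 and 28.7). Both Cd59b and Colec11 were dim on the Dock8-/- array, where the lowest readable intensity was 16.1.

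Itgam, the alpha chain of complement receptor CR3, was 2.05-fold higher after percentile scaling at 11048 and 10837, a difference of 1.03 that lies at -0.80 on the spike-in scale. Its partner chain Itgb2 lay at -0.14 (111.6 and 48.7). Fcna, a ficolin of macrophages, was read on the Dock8+/- array only and was at least 3.55-fold lower. Fcnb, a ficolin of granulocytes, was read on the Dock8-/- array only, at 24.3 against 18.1 in Dock8+/-. Both values lie close to the lowest readable intensity (17.4 in Dock8+/- and 16.1 in Dock8-/-). Percentile scaling makes the Fcnb reading 2.80-fold higher, and it lies at -0.35 on the spike-in scale. A bound such as that of Fcna sets the readable array against the lowest signal well above background on the other. Where the dim probe's own value is higher, as for Fcnb, that value is used.

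Lists of cell type markers are given beside the complement genes. The macrophage and fibroblast lists had medians below 0, while the neuron median was near 0 (-1.82 on the spike-in scale). All 15 macrophage markers were measured, none at 0, with a median of -1.25, and 9 were at least 2-fold lower. Their summed intensity before scaling was 51749 in Dock8+/- and 8899 in Dock8-/-, of which Lyz2 alone held 28256 and 1848. The Dock8-/- array was dimmer as a whole (75th percentile 145.6 against 303.8). Differences of the 15 markers ran from -2.87 to 0.24. Adgre1, the F4/80 antigen, was at -1.92 and Lyz2, lysozyme, at -2.87, whereas Csf1r, the receptor for the macrophage growth factor, was at -0.65, Cd163, a scavenger receptor, at -0.27 and Ptprc, the common leukocyte antigen, at 0.24 (-1.60 on the spike-in scale).

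All 10 fibroblast markers were measured as well, none at 0, with a median of -2.28, and 8 were at least 2-fold lower. Before scaling they summed to 297203 and 39884, of which Dcn alone held 169838 and 29379. Their differences ran from -3.81 to -0.10. Col1a1, a fibrillar collagen chain, was at -2.92 and Dcn, decorin, at -1.47, while Pdgfra, a receptor that marks fibroblasts, was at -0.10. In a bulk sample, fewer cells of a type and less RNA per cell cannot be told apart, and the part of either list in the complement values was not tested.

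Of 8 hepatocyte markers 4 were measured, with a median of 0.26, and Alb, albumin, and Ahsg were read on the Dock8+/- array only, while Apoa1 and Fgb were not well above background on either. The 12 neuron markers were all measured, summed to 494323 and 225896 before scaling and had a median of 0.02, and none was beyond 2-fold. Satellite glia markers (8 of 8) had a median of 0.69, astrocyte markers (4 of 4) 1.64, Schwann cell markers (6 of 6) -0.70, endothelial markers (5 of 6) -0.30 and neutrophil markers (6 of 6) 0.25. Skeletal muscle markers (3 of 6 measured) had a median of -3.94 and adipocyte markers (3 of 5), which include Cfd, -1.06, and Adipoq and Plin1 were read on the Dock8+/- array only. On the spike-in scale the medians above 0 turned below it, that of the astrocyte list to -0.20.

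**Figure D4:**
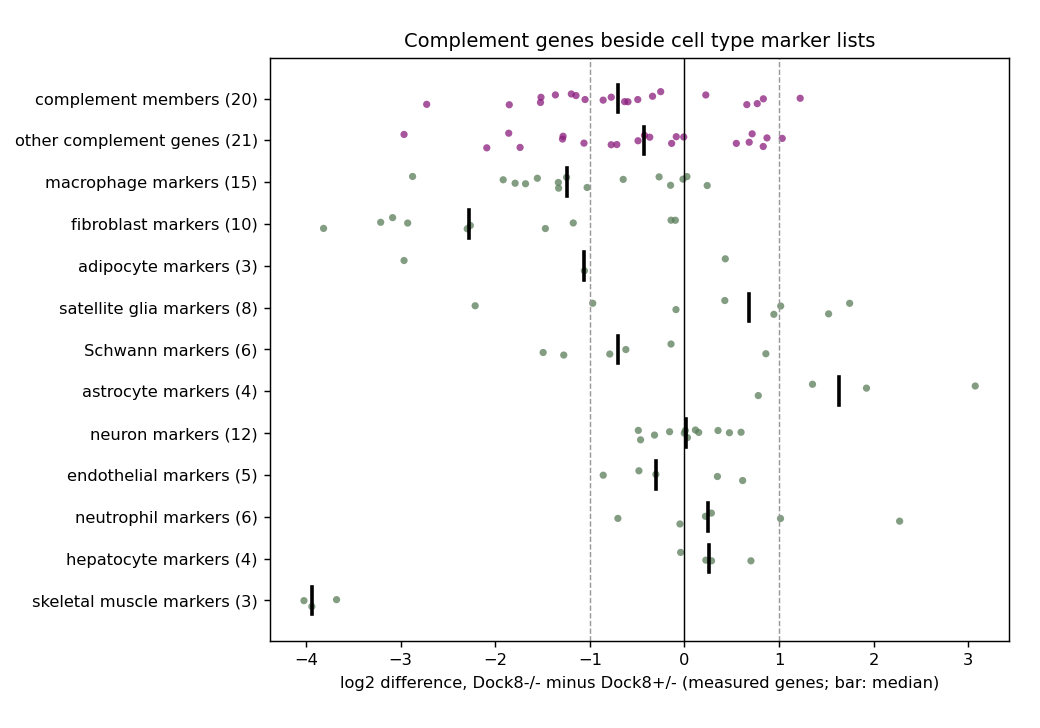
Log2 difference (Dock8-/- minus Dock8+/-, 75th percentile scaling) of each measured gene of the 31 complement genes, the other complement genes and the cell type marker lists, with the number measured in brackets. Bars are medians and dashed lines mark 2-fold. The complement genes spread from -2.72 to 1.22 around -0.70. The Schwann cell median was also -0.70, with the macrophage median at -1.25, adipocyte at -1.06, endothelial at -0.30 and neuron at 0.02. On the spike-in scale every point lies 1.84 lower, which turns the astrocyte median to -0.20.

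Other ways of processing the same arrays left the low genes low. All 8 members at least 2-fold lower stayed so under each of the 10 other scalings, background corrections, value sources, probe and detection rules. Outside the spike-in scale, 18 of the 20 measured genes kept their sign in every one of these, and the 2 that did not were C5ar1 and Masp1, each dim. C3 stayed above 0 in all but the spike-in scale.

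**Figure D5:**
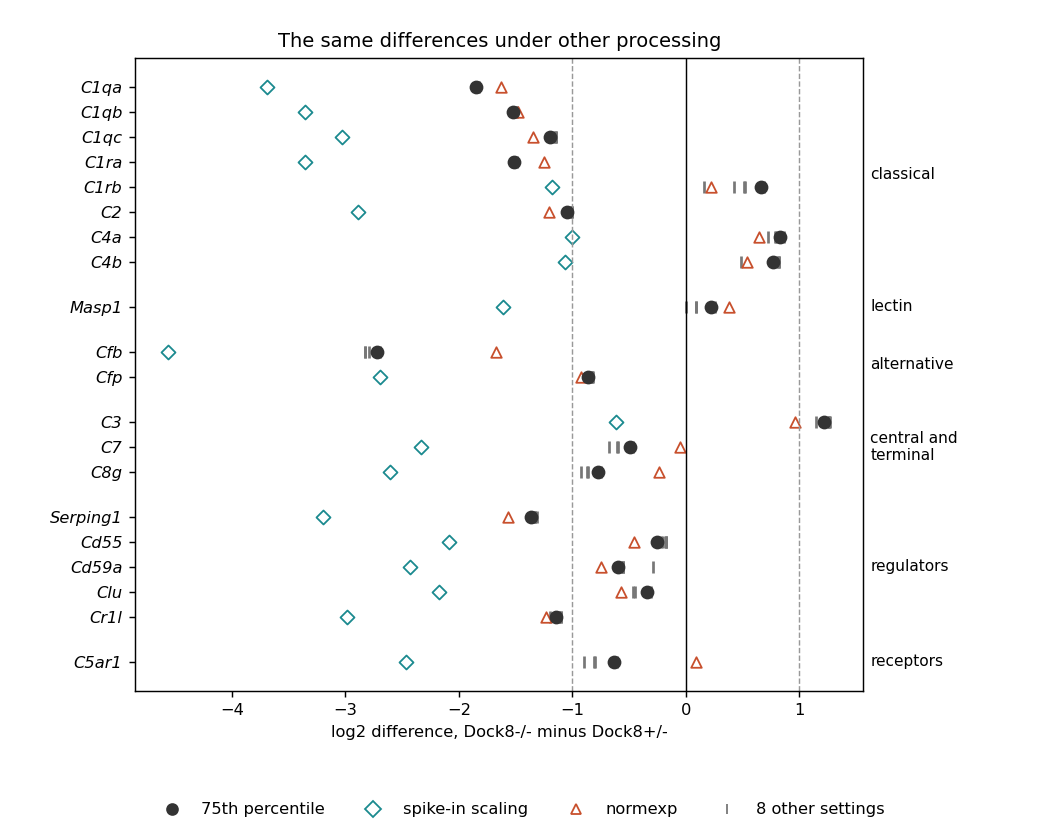
Log2 difference (Dock8-/- minus Dock8+/-) of the 20 measured complement genes under 75th percentile scaling (filled), spike-in scaling (diamonds), normexp background correction (triangles) and 8 other settings (ticks). Dashed lines mark 2-fold. Spike-in scaling moves each gene by -1.84 and brings C3 to -0.61, whereas the other settings leave C1qa, C1qb, C1qc, C1ra, C2, Cfb, Serping1 and Cr1l below -1.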

How the data were processed

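Spot intensity on a linear scale was taken from the deposited scanner files, which the authors produced with Agilent Feature Extraction (10.7.1.1 per the file headers, 9.5.1.1 per the submitters' processing notes). Non-control spots (59305) were kept except 3 and 1 flagged as non-uniform, and 0 were saturated. The log2 processed intensity was averaged per probe and reduced by the 75th percentile of all non-control probes on the same array. Each gene took its brightest probe without a GA or GAA repeat of at least 4 units, and was called measured if both arrays read it well above background.

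The authors' deposited value table, intensity on a linear scale, served as an alternative. It was found to be quantile normalised, since 98.9% of sorted values were equal in both columns (tolerance 0) and each median was 27.9, and its log2 values correlated with the scanner files at 0.999 or more across probes. Direction is that of intensity, no centring was seen, and 0 value columns were unused.

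The members and lists were chosen with earlier results of these data known. Every member is named, other complement genes when measured or bounded at 2-fold or more, and defining markers of macrophages and fibroblasts. Of the other complement genes at least 2-fold lower, 1 is not reported here. Alternatives were other scalings (percentile or median of detected probes, quantile, loess with span 0.3, spike-in), normexp with offset 50, other probe and detection rules, and thresholds of 1.5-fold and 3-fold. R 4.3.3 with limma 3.58.1 and Python 3.11.15 were used, and the steps were tested on simulated data. Promoter windows and gene order came from RefSeq (GRCm38.p6), and probe positions (mm9) from the files.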

Additional observations from a re-analysis of the deposited data

Results flagged for a closer look

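Probes that were not used for their gene gave a signal on the Dock8-/- array alone. The Cd46 probe A_55_P2058230 read 24.5 there, well above background, and 18.7, not well above background, on the Dock8+/- array. The Clu probe A_55_P2718608 read 22.4 on the Dock8-/- array and 4.03, not well above background, on the Dock8+/- array, while the Clu probe used for the gene was lower on the Dock8-/- array (46775 and 17741). Both signals lie close to the lowest intensity well above background there (16.1).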

How the results depend on the processing

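No paired analysis was possible because there was 1 array per genotype, and none could be left out. The cause of the changes below was not tested, except that spike-in scaling adds a constant of -1.84. There the median of the 20 members was -2.54, 19 were at least 2-fold lower (87.3% of all measured genes) and 0 higher, the macrophage and fibroblast medians were -3.08 and -4.12, C3 lay at -0.61 and the astrocyte median at -0.20. The member median was -0.81 under quantile normalisation, -0.86 under loess, -0.81 in the authors' value table, -0.52 with a weaker detection flag, -0.34 without a filter on dim probes, and -0.63 with genes well above background on at least 1 array. Under normexp 0 members were at least 2-fold higher, and the macrophage and fibroblast medians were -1.16 and -2.47. The fibroblast median was -1.55 with the mean of a gene's probes. The count at least 2-fold higher was 5 of 26 with the weaker detection flag (13.8% of all genes), 6 of 31 without the filter (14.5%) and 2 of 23 with genes detected on at least 1 array (9.89%). At 1.5-fold 12 members were lower and 4 higher (16.9% and 20.6% of all genes), and at 3-fold 2 were lower and 0 higher (2.29% and 2.26%). All 8 genes at least 2-fold lower kept that size under every scaling, background, source, probe and detection alternative. Of 20 gene differences, 18 moved by more than spot error under normexp, 8 under quantile normalisation and in the value table, 7 under loess and 5 with the mean of probes. Among all measured genes, 8.26% were lower and 6.59% higher under loess, and 4.67% and 3.43% under normexp. Dim genes are limited by background: 8 members gave no reading.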

Other observations

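Genes that share the globular domain of C1q were looked at on a list written after values had been seen. Of 26, 15 were measured, with a median of -0.89, which was -0.17 under normexp and -1.14 under loess. In the Dock8-/- sample 7 were at least 2-fold lower (46.7%) and 0 higher, beside 7.07% and 8.74% of all measured genes. Col8a2 and Col8a1, chains of collagen VIII, were 9.42-fold and 5.07-fold lower. Of the C1q and TNF related proteins, C1qtnf2 was 7.22-fold, C1qtnf5 4.26-fold, C1qtnf7 4.23-fold and C1qtnf6 2.39-fold lower, and Mmrn2, an endothelial matrix protein, was 2.21-fold lower. Mmrn1 and Adipoq, which encodes adiponectin, were read on the Dock8+/- array only and were lower by at least 3.56-fold (Mmrn1) and 3.11-fold (Adipoq). Of the C1q-like and cerebellin genes, some known as synaptic organisers, C1ql3, Cbln1 and Cbln2 lay at 0.74, 0.56 and 0.23 (-1.10, -1.27 and -1.61 on the spike-in scale) and C1ql1 at -0.01. C1ql4 was read on the Dock8+/- array only, and C1ql2, Cbln3 and Cbln4 were not well above background.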
